A study of Rattus norvegicus with 4 samples.

Results

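Pfkl, Eno2 and Pygl encode enzymes of sugar use in the cell, and their signals were followed in rat INS-1 cells after a week in high glucose. They were chosen from the comparison of glucose levels itself, as the rows with the single gene symbol Pfkl, Eno2 or Pygl, taking the brightest row of a gene. Each of the 3 genes had 1 probe set, so 3 of 36685 probe sets, or 3 of 14557 genes with a symbol of their own, are described. No row with several symbols held any of them. INS-1 cells secrete insulin, come from an insulinoma of the rat and stand in for beta cells of the pancreas. The line is derived from a tumour, so its sugar metabolism need not be that of islet beta cells. Glucose was 11.2 mM in 2 samples and 22.4 mM in the other 2, both for 7 days and with no further treatment named in the labels, and the higher concentration is the study's glucotoxic condition. Total RNA was hybridized to 4 Affymetrix arrays, 1 per sample. The labels do not say whether replicates were separate cultures, so their spread may be technical.

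Glycolysis splits glucose into pyruvate, and beta cells use its rate to sense the sugar around them. Phosphofructokinase takes its committed step, adding a phosphate to fructose 6-phosphate, and Pfkl encodes the liver-type subunit of the enzyme. Enolase takes a late step, making phosphoenolpyruvate, and Eno2 encodes its gamma isoform, known as neuron-specific enolase and also found in neuroendocrine cells such as those of the islet. Pygl encodes the liver-type glycogen phosphorylase, which releases glucose 1-phosphate from glycogen, the branched store of glucose that beta cells can build up in high glucose.

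The stretches upstream of the 3 genes are shown because all 3 were chosen for their difference with glucose, and because glycolytic genes often carry short elements that bind glucose- or oxygen-responsive factors there. Each is the 250 bases before the transcription start in RefSeq, build GRCr8, written 5′ to 3′ on the strand of the gene. Capitals mark the letters ACGTG on either strand, a form of the core of elements bound by hypoxia-inducible factors. Other forms of that core were not searched for and are not marked.
Pfkl, chr20:10663715-10663964, strand +: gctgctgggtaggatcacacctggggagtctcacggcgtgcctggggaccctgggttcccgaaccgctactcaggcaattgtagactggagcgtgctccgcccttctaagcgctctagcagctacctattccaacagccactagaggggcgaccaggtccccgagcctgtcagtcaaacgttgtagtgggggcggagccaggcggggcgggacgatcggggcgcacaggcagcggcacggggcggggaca
Eno2, chr4:159267221-159267470, strand -: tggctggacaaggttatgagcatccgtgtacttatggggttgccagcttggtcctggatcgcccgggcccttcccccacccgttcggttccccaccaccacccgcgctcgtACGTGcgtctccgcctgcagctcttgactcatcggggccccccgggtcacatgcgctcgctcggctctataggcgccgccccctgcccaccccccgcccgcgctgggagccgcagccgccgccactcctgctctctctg
Pygl, chr6:94476220-94476469, strand -: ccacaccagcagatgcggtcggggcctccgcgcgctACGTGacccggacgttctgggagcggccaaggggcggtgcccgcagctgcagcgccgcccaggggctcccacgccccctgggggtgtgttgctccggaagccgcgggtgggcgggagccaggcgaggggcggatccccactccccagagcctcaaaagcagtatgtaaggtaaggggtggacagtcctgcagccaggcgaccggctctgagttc
Eno2 held 1 copy of ACGTG, its first base 139 bases before the start, and Pygl held 1 copy at 214 bases. Pfkl held 0. The letters were present in 16.6% of 33469 rat promoters of the same length, in 18.5% of the 12576 that belong to genes named on the array, and in 16 of the 31 that matched measured genes of glycolysis and glycogen metabolism. CACGTG, the E-box that carbohydrate response factors bind in pairs and that contains ACGTG, was found in 0 of the 3 stretches, in 5.59% of all promoters, in 6.65% of those of genes on the array and in 6 of the 31. GGGCGG, the GC box, was found on either strand 4 times for Pfkl, 2 times for Eno2 and 4 times for Pygl, and 30.5% of all promoters, 43.0% of those of genes on the array and 16 of the 31 held it. These matches describe letters and were not tested as binding sites.

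The deposited log2 signals are on a scale whose base was inferred from their range, and 1 unit of it stands for 2-fold. All 4 arrays had medians between 4.73 and 4.80. Replicate 1 of 11.2 mM stood apart: its mean absolute log2 difference from the other arrays was between 0.213 and 0.246, against 0.172 to 0.195 among the other 3. Replicate 2 of 11.2 mM was thus nearer to both arrays of 22.4 mM (0.188 and 0.195) than to its own replicate (0.213). The table holds no background level, and no signal was therefore shown to exceed it. Beta cell genes were bright, as Iapp, which encodes the islet hormone amylin, ranged from 12.33 to 12.57 and the glucose transporter Slc2a2 from 12.16 to 12.34. Of 11 beta cell genes 7 were measured and 6 had negative differences, the lowest being the insulin gene Ins2 with -1.84. The other insulin gene, Ins1, was the 1 positive gene, with 0.18. Of all probe sets 49.2% had a positive difference. Glucagon (Gcg), a hormone of alpha cells, had signals of 11.07 to 11.24. Sst and Ppy, listed with it as other islet hormones, lay under the median signal on every array. Of the acinar list 4 of 5 genes were measured and 0 had a mean signal at the median of all values or above it.

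Pfkl was higher in high glucose. Its log2 signal was 8.20 and 8.66 on the arrays of 11.2 mM and 9.15 and 9.16 on those of 22.4 mM. Both arrays of 22.4 mM thus lay above both of 11.2 mM and were almost level with each other, while those of 11.2 mM lay 0.45 apart. The mean was 8.43 ± 0.32 (SD, n = 2) at 11.2 mM and, at 22.4 mM, 9.16 ± 0.0040 (SD, n = 2). Their difference on the log2 scale was 0.73 (SE 0.17), or 1.65-fold. The gap between the nearest arrays of the groups was 0.50, hardly wider than that between the 11.2 mM replicates. Without replicate 1 of 11.2 mM the difference was 0.50, and without replicate 2 it was 0.95. In bulk RNA, a change in the share of cells with a transcript cannot be told apart from a change in the level per cell.

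Eno2 was lower in high glucose, by about as much as Pfkl was higher. Its log2 signal was 9.43 and 9.04 at 11.2 mM and 8.49 and 8.54 at 22.4 mM. Here too the groups did not overlap and the wider spread was at 11.2 mM, with replicate 1 the extreme array. The mean was 9.23 ± 0.28 (SD, n = 2) in the lower glucose and, in the higher, 8.51 ± 0.035 (SD, n = 2). Their difference on the log2 scale was -0.72 (SE 0.16), so that the signal was 1.65-fold lower. Leaving out replicate 1 of 11.2 mM gave -0.52, and leaving out replicate 2 gave -0.92. Across the 4 arrays Pfkl and Eno2 were near mirror images: with each gene centred on its mean and the sign of Eno2 turned, their root mean square distance was 0.029 on the log2 scale. This is a description of 4 arrays, and both genes were chosen for their differences in this same comparison, so sign and size carry no test.

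Pygl had the largest difference of the 3 and the tightest replicates at 11.2 mM. Its log2 signal was 6.57 and 6.61 at 11.2 mM and 7.57 and 7.46 at 22.4 mM. Each group kept within 0.11, and the nearest arrays of different groups lay 0.85 apart. The mean was 6.59 ± 0.027 (SD, n = 2) at 11.2 mM and, at 22.4 mM, 7.51 ± 0.077 (SD, n = 2). Their difference on the log2 scale was 0.93 (SE 0.10), or 1.90-fold. Leaving out any 1 of the 4 arrays kept the difference between 0.87 and 0.98. Its signal was over the 75th percentile of the array on 2 of the 4 arrays, both at 22.4 mM, where Pfkl and Eno2 were over it on all 4.

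**Figure D1:**
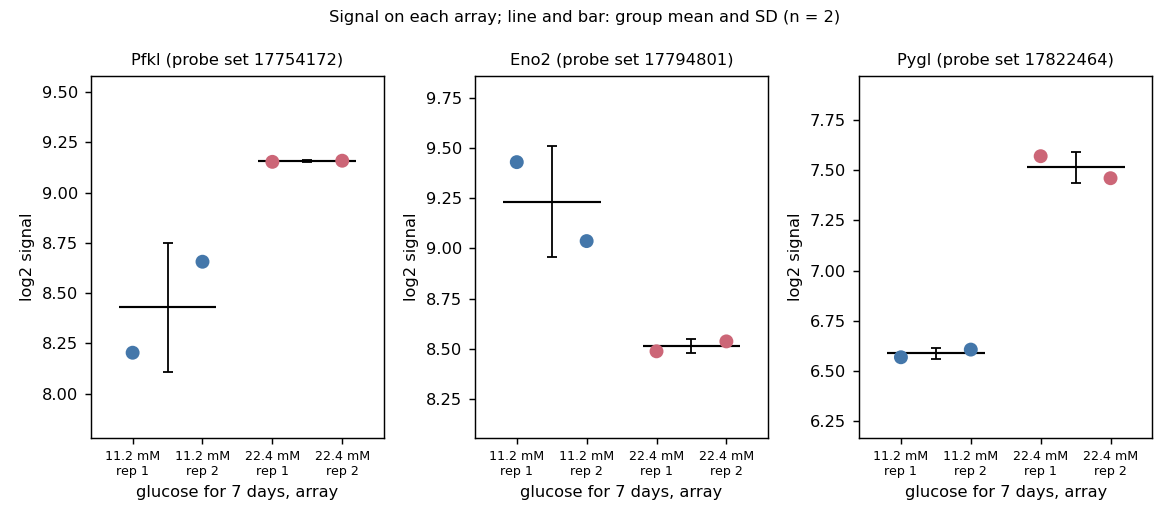
Log2 signal (vertical axis, spanning the same number of log2 units in each panel) of Pfkl, Eno2 and Pygl on each of the 4 arrays (horizontal axis), with blue points for 11.2 mM, red points for 22.4 mM, and a line and bar for the group mean and SD of 2 arrays. The 22.4 mM arrays lie above the 11.2 mM arrays for Pfkl and Pygl and below them for Eno2, and the arrays of 11.2 mM are 0.45 apart in Pfkl, 0.39 in Eno2 and 0.038 in Pygl.

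These values chose the genes and are given with no test. For scale, groups did not overlap in 40.6% of all 36685 probe sets, 19.6% higher and 21.0% lower at 22.4 mM, so the lack of overlap in all 3 is read as nothing beyond the choice. A difference as large as that of Pygl, on the higher side, was met in 149 probe sets, one as large as that of Pfkl in 355, and one as far below 0 as that of Eno2 in 281. Limma with Benjamini-Hochberg adjustment over all probe sets called 0 of 36685 (0%) at a threshold of 0.05, and at an unadjusted p under 0.05 it had 3344 probe sets (9.12%). Without replicate 2 of 11.2 mM that second count was 5709, and leaving out replicate 1 or 2 of 22.4 mM made it 2139 or 2114.

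**Figure D2:**
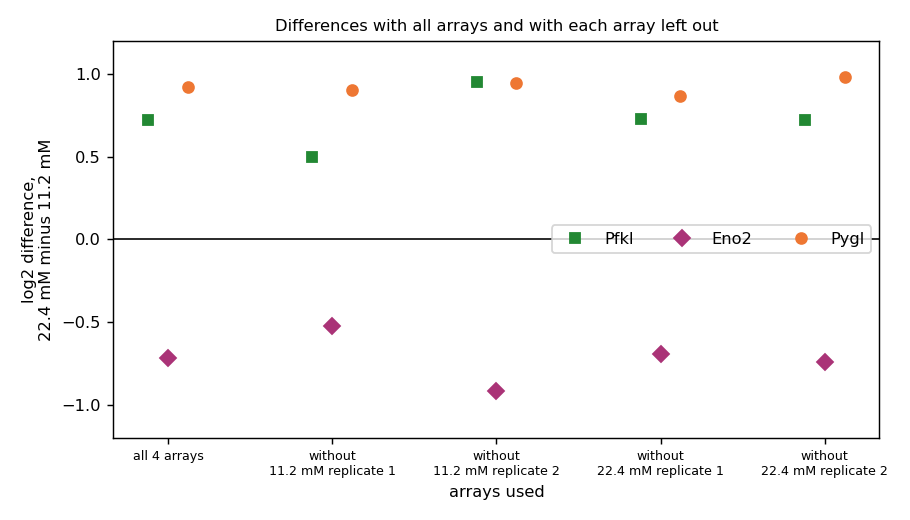
Log2 difference, 22.4 mM minus 11.2 mM (vertical axis), of Pfkl (squares), Eno2 (diamonds) and Pygl (circles) with all 4 arrays and with each array left out in turn (horizontal axis). Pfkl moves between 0.50 and 0.95 and Eno2 between -0.92 and -0.52 with the 11.2 mM array left out, while Pygl stays between 0.87 and 0.98.

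Each of the 3 enzymes has isoforms encoded by other genes, and those measured had smaller differences. Pfkm (probe set 17832028), the muscle-type phosphofructokinase, had 9.40 and 9.68 at 11.2 mM and 9.59 and 9.70 at 22.4 mM. These groups overlapped, and the log2 difference was 0.10 with a 95% interval from -0.25 to 0.46 and adjusted p = 0.870 by limma, turning to -0.037 without replicate 1 of 11.2 mM. Eno3 (17647901), the muscle enolase, differed by -0.075 (interval from -0.33 to 0.18), and Eno4 (17626800), an enolase needed in mouse sperm, by 0.16 (interval from -0.12 to 0.44). Eno3 differed by -0.038 without replicate 2 of 11.2 mM, and Eno4 by 0.085 without replicate 1 of 22.4 mM. Pygm (17623476), the muscle glycogen phosphorylase, had 4.34 and 4.11 against 4.12 and 4.12, a difference of -0.10 (interval from -0.41 to 0.21), and of 0.011 without replicate 1 of 11.2 mM. Eno3, Eno4 and Pygm lay under the median signal of all probe sets, 4.77, on every array, so a difference in them could be understated. Whether the isoforms of an enzyme differed from each other in their response was not tested. Pfkp, Eno1 and Pygb were not named by a probe set of their own and are not analysed here.

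In the rest of glycolysis most differences were small. Of 29 listed genes 14 were measured, and beside Pfkl and Eno2 these were 12, of which 11 had a positive and 1 a negative difference, where 49.2% of all probe sets were positive. Of the 12, 2 had an unadjusted p under 0.05, against 9.12% of all probe sets, and 0 passed over all probe sets. The groups did not overlap in 7 of the 12, 6 higher and 1 lower, or 58.3% against 40.6% of all probe sets. Of these 7, Hk2, Eno3 and Eno4 lay under the median signal on every array. The nearest arrays of the groups were only 0.0035 apart in Hk2 and 0.042 in Pkm. The positive genes include Hk2, Hk3 and Pgam2, whose differences of 0.014, 0.0027 and 0.011 were smaller than their standard errors of 0.093, 0.12 and 0.15. The median log2 difference was 0.16, with or without Pfkl and Eno2. Over all 14 it was 0.11 without replicate 1 of 11.2 mM, 0.25 without replicate 2, and 0.098 without replicate 2 of 22.4 mM. Eno2 was the 1 gene of the list with a difference under -0.10, so it stood opposite to 12 of the other 13. The remaining negative gene was Eno3, and quantile normalization or centring of the arrays left the counts of positive and negative genes among the 14 at 12 and 2.

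The regulator of phosphofructokinase stood highest. Pfkfb3 (17716849), which makes fructose 2,6-bisphosphate, the activator of the enzyme, had 7.85 and 8.28 at 11.2 mM and 9.15 and 9.18 at 22.4 mM, a log2 difference of 1.10 (SE 0.17) with adjusted p = 0.268 by limma. The replicates of 11.2 mM were again the wider pair. Pklr (17739986), the liver-type pyruvate kinase of the last step, had 9.81 and 10.64 against 11.20 and 11.30. Its difference was 1.03 (SE 0.29; adjusted p = 0.449) and 0.61 without replicate 1 of 11.2 mM. Neither passed, and adjusted p over the settings tried ran from 0.0591 to 0.827 for Pfkfb3 and from 0.167 to 0.893 for Pklr. Beside these and Pfkl and Eno2, the measured genes had differences from -0.075 for Eno3 to 0.52 for Pkm. Among them were the hexokinases Hk2 and Hk3, the aldolase Aldoc, the kinase Pgk1 and the pyruvate kinase Pkm. Hk2, Hk3 and Pfkfb1, a relative of Pfkfb3, lay under the median signal on every array. Genes of this range, apart from the isoforms of Pfkl and Eno2, were named after their values were seen.

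Genes that handle pyruvate and lactate, the end products of glycolysis, were positive in 7 of 8, with a median of 0.37, against 49.2% positive among all probe sets. The groups did not overlap, on the higher side, in 7 of the 8, against 19.6% of all probe sets, and 0 passed over all probe sets. The 7 include Ldhb and Slc16a3, whose differences of 0.085 and 0.053 were smaller than their standard errors of 0.094 and 0.093. Slc16a3 also lay under the median signal on every array. Both were named after their values were seen. Pdk1 (17762924), a kinase that turns off pyruvate dehydrogenase, had 8.49 and 8.73 against 9.23 and 9.35, a difference of 0.68 (SE 0.13; adjusted p = 0.309 by limma). Slc16a1 (17741633), a lactate and pyruvate carrier that normal beta cells keep silent, had 6.33 and 5.50 against 6.65 and 6.90. Its difference of 0.86 (SE 0.30; adjusted p = 0.509) became 1.27 with replicate 1 of 11.2 mM left out and 0.45 with replicate 2 left out. Pdk4 (17789572), a related kinase, stood lowest with -0.038, under the median signal on all arrays.

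**Figure D3:**
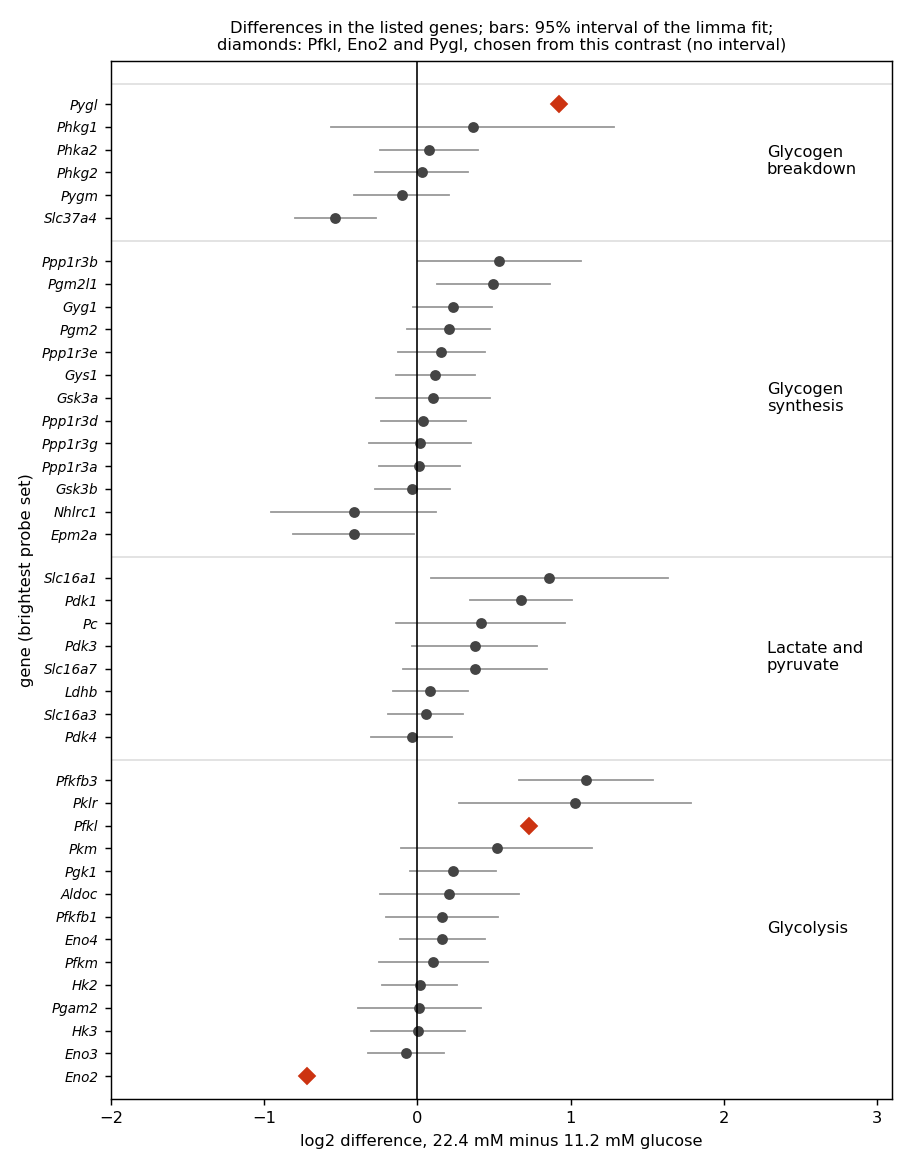
Log2 difference, 22.4 mM minus 11.2 mM glucose (horizontal axis), of each measured gene (vertical axis) of glycolysis, lactate and pyruvate handling, glycogen synthesis and glycogen breakdown, with bars for the 95% interval of the limma fit and red diamonds without bars for the 3 genes chosen from this contrast. Pfkl stands in glycolysis next after Pfkfb3 and Pklr, Eno2 stands lowest there, and Pygl stands highest in glycogen breakdown.

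Around Pygl, the genes of glycogen metabolism had a median difference near 0. Of 31 listed genes 19 were measured, 14 positive and 5 negative, with a median log2 difference of 0.075, or 0.057 without Pygl. Leaving out replicate 1 of 11.2 mM gave a median of -0.019 and leaving out replicate 2 gave 0.12, so its sign rested on 1 array. Beside Pygl the groups did not overlap in 10 of 18, or 55.6% against 40.6% of all probe sets, 6 higher and 4 lower. Over all probe sets 0 passed.

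Among the 6 measured genes of glycogen breakdown, Pygl and Slc37a4 stood at opposite ends. Slc37a4 (17843625), the carrier that takes glucose 6-phosphate into the endoplasmic reticulum, had 7.89 and 8.00 at 11.2 mM and 7.41 on both arrays of 22.4 mM. All arrays of high glucose lay lower, with a difference of -0.54 (SE 0.10; adjusted p = 0.309 by limma) that ranged from -0.60 to -0.48 with any 1 array left out. The other breakdown genes overlapped between groups: the phosphorylase kinase subunits Phka2, Phkg2 and Phkg1, which activate phosphorylase, differed by 0.075, 0.027 and 0.36, and in Phkg1 the 11.2 mM replicates were 1.04 apart. These subunits are named, outside the rule for named genes, because they act on Pygl.

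On the synthesis side 13 of 19 genes were measured, and differences ran from -0.42 to 0.53. Gys1 (17616331), the muscle-type glycogen synthase and the enzyme that opposes Pygl, had 7.36 and 7.25 against 7.42 and 7.42, a difference of 0.12 (interval from -0.14 to 0.37); it too is named for that role. Pgm2l1 (17618669), which makes glucose 1,6-bisphosphate, differed by 0.50 (SE 0.14; adjusted p = 0.450 by limma) and was 0.36 without replicate 1 of 11.2 mM. Ppp1r3b (17712099), which brings protein phosphatase to glycogen, had 8.16 and 7.65 against 8.34 and 8.55, a difference of 0.53 (SE 0.20; adjusted p = 0.545) that became 0.79 with replicate 1 of 11.2 mM left out and 0.28 with replicate 2 left out. Epm2a (17610505), the glycogen phosphatase laforin, had 6.60 and 6.23 against 5.97 and 6.02, a difference of -0.42 (SE 0.15; adjusted p = 0.529), and of -0.24 without replicate 1 of 11.2 mM.

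Genes most like each of the 3 in pattern over the 4 arrays were found by the root mean square distance of centred log2 signals. The search covered 8489 genes whose mean signal was at or above the median of all values. Numbered loci, chemosensory receptors and small RNAs were left out. The nearest genes were picked for following the same arrays, so their differences carry no test. Nearest to Pfkl were the transketolase Tkt of the pentose phosphate pathway (distance 0.027), the cyclin G1 gene Ccng1 (0.036) and Tnfsf10, which encodes the death ligand TRAIL (0.037). Tkt (17705975) had 9.56 and 9.94 at 11.2 mM and 10.47 and 10.46 at 22.4 mM. It shared with Pfkl both the low replicate 1 of 11.2 mM and the level pair at 22.4 mM. A second, dimmer probe set of Tkt (17709760) differed by 1.12, against 0.71 for the brighter. Of the pentose phosphate list 5 of 8 genes were measured, 4 of them positive, where 49.2% of all probe sets were positive. The median of the list was 0.55, and 0 passed the test over all probe sets. Tkt, the highest gene of that list, is counted in it and was picked for following Pfkl. These values are therefore not independent of that choice.

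Nearest to Eno2 were Nedd9, a scaffold protein of focal adhesions (distance 0.021), Anxa6, a calcium-dependent membrane-binding protein (0.033), and Morn2 (0.035). Nedd9 (17715072) had 8.22 and 7.79 at 11.2 mM and 7.29 and 7.30 at 22.4 mM, and thus was highest on the same array as Eno2. Nearest to Pygl were Lrrc73 (distance 0.036), Ramp1, a partner protein of calcitonin-family receptors (0.050), and Serf1 (0.052). Lrrc73 (17862848) had 6.62 and 6.60 against 7.60 and 7.56, with replicates as close as those of Pygl. Log2 differences were 0.71, 0.70 and 0.65 for the 3 genes like Pfkl, -0.71, -0.71 and -0.79 for those like Eno2, and 0.97, 0.89 and 0.89 for those like Pygl. Without replicate 1 of 11.2 mM Tnfsf10 differed by 0.42 and Anxa6 by -0.47.

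**Figure D4:**
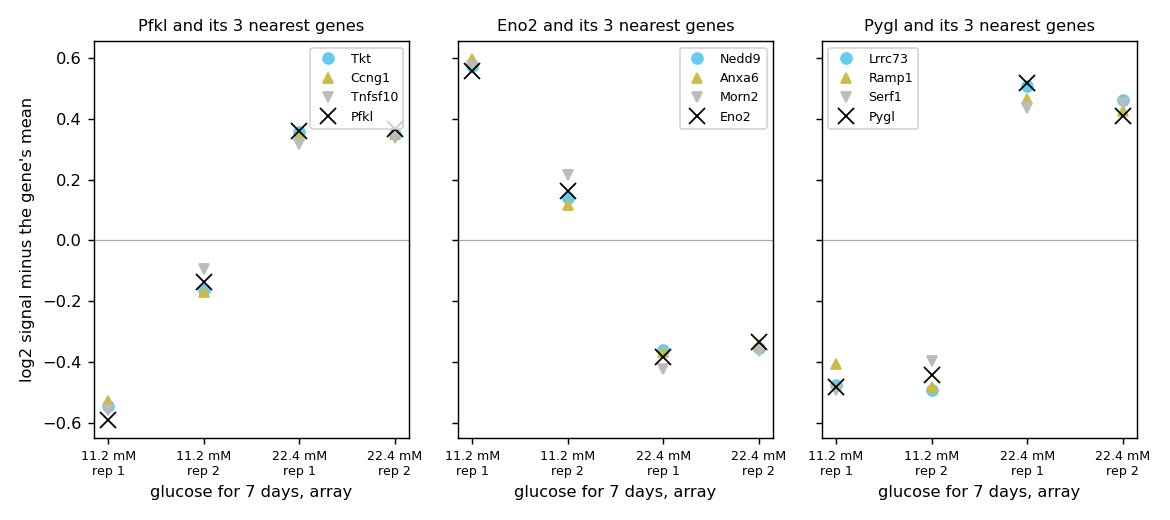
Log2 signal minus the mean of the gene over the 4 arrays (vertical axis) on each array (horizontal axis) for Pfkl, Eno2 and Pygl (crosses) and the 3 genes nearest to each (coloured points). In the Pfkl and Eno2 panels replicate 1 of 11.2 mM lies farthest from 0, whereas in the Pygl panel both arrays of a group lie close together.

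Genes of neurons and liver were set beside Eno2, Pfkl and Pygl because these isoforms are named for those tissues. Of 8 neuron genes 5 were measured, 3 with a positive and 2 with a negative difference. The lowest was Nefl, a neurofilament, with -0.85, and the highest Tubb3, a neuronal tubulin, with 0.57. Nefl had 2 probe sets, of which only the brighter is described here. Nefm, another neurofilament, differed by -0.36, and in Nefl and Nefm the 22.4 mM arrays were the lower ones without overlap, as in Eno2. In Nefm the nearest arrays of the groups were only 0.012 apart. In Tubb3 and in Gap43, which differed by 0.41, the 22.4 mM arrays were the higher ones without overlap, and Syn1 overlapped. The list thus had 2 genes higher and 2 lower without overlap, where groups did not overlap in 40.6% of all probe sets. The summed linear signal of the 5 ranged from 939 to 994 at 11.2 mM and from 1016 to 1099 at 22.4 mM. Of 6 liver genes 4 were measured, with summed signals of 78.6 to 84.5 at 11.2 mM and 97.1 to 97.4 at 22.4 mM. Of the 4, 1 had a mean signal at the median of all values or above it, the foetal liver protein Afp. Afp differed by 0.44, Tat by 0.083 and Serpina1 by -0.0062. Albumin, Alb, lay under the median signal on every array, between 4.14 and 4.47. Median differences were 0.025 for the neuron list and 0.12 for the liver list. They were -0.19 for beta cell, 0.085 for other islet hormone, -0.014 for muscle, -0.0060 for acinar, -0.081 for stromal and -0.079 for immune genes, and -0.032 for gluconeogenesis. The part of the neuron or liver list in the differences of Pfkl, Eno2 and Pygl was not tested. Nefl, Nefm, Tubb3, Gap43, Syn1, Afp, Tat, Serpina1 and Alb were chosen after their values were seen. So were, above, Iapp, Slc2a2, Ins1, Ins2, Gcg, Sst and Ppy.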

How the data were processed

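For every one of 36685 probe sets the authors deposited a log2 signal per array, 4 in all, and base 2 was inferred from the values, which ran from 2.23 to 13.2. Labelling used an Affymetrix whole-transcript kit, per the labels' protocols. The sources used here do not give the background correction, normalization, software or genome build. The values were used as deposited. Symbols came from the platform annotation, which can be old: 14824 probe sets had 1 symbol, 829 several and 21032 were unnamed here. Entrez identifiers of 14670 were found in RefSeq GRCr8 and 0 symbols changed.

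Under R 4.3.3, limma 3.58.1 (lmFit, then eBayes, two-sided, 2 residual degrees of freedom) compared the groups, and Benjamini-Hochberg adjustment ran over all probe sets. Precision is limited by the number of arrays, with a median standard error of 0.12. The code was tested on simulated data. The 3 genes and all gene lists were chosen with earlier results of these data known. Genes named were the 3 and their isoforms, up to 6 of each list with an unadjusted p under 0.05 and no overlap, the ends of each list, and the 3 most alike genes; others are marked in the text. Alternatives varied the normalization, the probe sets tested, the variance model, the replicate block, the probe sets of a gene and the arrays used. Replicate numbers came from the titles, which do not say that a number marks a shared batch; deviations of equal numbers correlated at -0.078 over probe sets, so samples were not treated as paired.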

Additional observations from a re-analysis of the deposited data

How the results depend on the processing

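Differences of Pfkl, Eno2 and Pygl chose these genes, so their direction is no sign of stability. With each array left out in turn they ranged from 0.50 to 0.95, from -0.92 to -0.52 and from 0.87 to 0.98. Limma called 0 probe sets under each setting except the fit of probe sets with 1 gene symbol, which called 62 and had 1912 at an unadjusted p under 0.05; fewer probe sets were tested there. Leaving out an array gave 2114 to 5709 probe sets at an unadjusted p under 0.05, against 3344 with all. The glycolysis median ranged from 0.098 to 0.25 and the glycogen median from -0.019 to 0.12 with an array left out, and the glycogen median was 0.10 among brighter probe sets. Turned signs were those of Pfkm (-0.037) and Pygm (0.011) without replicate 1 of 11.2 mM and Pdk4 (0.015) without replicate 1 of 22.4 mM; the cause was not tested. Without the other array of the group Pygm had -0.22 and Pdk4 -0.090. Of 216 values of 22 other named genes under alternatives, 210 kept their sign and their side of the threshold. The 3 that turned sign are given above, and the 3 others belong to genes picked for being like Pygl, whose values carry no test. The count is no measure of stability. Under every setting but 1, 0 probe sets were called, so the side of the threshold could hardly change. Many of these genes were also picked by their values on these same arrays. With the replicate block, which is not a pairing the labels state, 0 probe sets were called and 2958 had an unadjusted p under 0.05, against 3344. Background signal is unknown, which limits what can be said of Eno3, Eno4, Pygm, Pdk4, Slc16a3, Hk2, Hk3 and Pfkfb1.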
